A study of Mus musculus with 178 samples.

Results

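Whole blood of nonresponding mice grouped as stable disease was compared with that of the other nonresponding mice at the first bleed on Day 4. The second group is called progressing here, a working name that neither the labels nor the source data use. The comparison held 29 of the 178 bulk RNA-seq libraries analysed, 15 of stable disease and 14 of progressing mice, with 1 library per mouse. The sample labels call all 29 mice nonresponders, and the division follows the study's own source data, in which library numbers 30 to 44 of Day 4 are stable disease and 16 to 29 the other nonresponders. All mice of the cohort were C57BL/6J, were 6 to 8 weeks old, and carried orthotopic 4MOSC1 tumors, a squamous carcinoma line of the mouse oral cavity with mutations of the tobacco type. All were labelled as treated with an antibody against PD-1. The study's descriptions place the first dose after the Day 4 bleed, so that the groups are named for a later outcome. Retro-orbital blood was put in TRIzol, and the SMARTer kit made the libraries from its polyadenylated RNA. The mice bear ear tags of 3 or of 4 digits, and the labels do not say what the tag series stand for. Tags of 4 digits were worn by 4 of the 15 stable disease mice and 3 of the 14 progressing mice, against 11 of the 15 responders on the same day, which are given here for reference.

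Unsorted blood holds the RNA of every circulating cell. Reticulocytes, the youngest red cells, have lost the nucleus but still carry globin messages, ribosomes and mitochondria, which they shed as they mature. Platelets likewise have no nucleus and keep messages made by megakaryocytes, whereas white cells keep transcribing. In such bulk samples, fewer cells of a type and less RNA per cell cannot be told apart.

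Libraries summed to a total count of 40758287 to 82208665 in stable disease and 37027992 to 61179948 in progressing mice. Without haemoglobin genes, 9303921 to 22174668 and 4655166 to 17582739 counts were left. A median of 17369 genes had a count in stable disease and 16566.5 in progressing mice. No pair of libraries held identical values. Haemoglobin genes, the B cell gene Cd79a, the T cell gene Cd3d, the monocyte gene Ly6c2 and the platelet gene Gp9 were detected in all 29 libraries. Of 32 genes of squamous epithelium 8 had enough counts for a test, and of 16 genes of skeletal muscle 3 had. The Y-linked genes Ddx3y, Eif2s3y, Kdm5d and Uty were at 0 counts in all 44 libraries of Day 4, and Xist, the RNA that silences an X chromosome in females, was at 152 CPM (median, 74.0 to 197) in stable disease and 135 CPM (52.2 to 176) in progressing mice. These are the values of female mice, whereas the study as a whole reports using both sexes. CPM give a gene's count against the TMM-scaled total of its library, and they are not divided by gene length.

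No gene passed the test between the groups. The comparison asks whether blood taken before treatment already differed between the nonresponders grouped as stable disease and the others. Of 12501 genes tested, 0 (0%) passed edgeR's quasi-likelihood test, with the tag series in the fit, at a Benjamini-Hochberg adjusted p up to 0.05 together with a 1.5-fold or larger difference. The smallest adjusted p was 0.102 and was shared by 581 genes. At an unadjusted p below 0.05 there were 3140 genes (25.1%), of which 1259 (10.1%) were higher and 1881 (15.0%) lower in stable disease. DESeq2 on the same libraries and design called 146 genes (1.17%), all of them lower in stable disease, whereas by its adjusted p alone 938 genes (7.50%) passed, 252 (2.02%) higher and 686 (5.49%) lower. A two-sided Wilcoxon test on TPM called 0, with 6915 genes higher and 6 lower at an unadjusted p below 0.05, and one-tailed Wilcoxon tests called 1563 genes as higher and 0 as lower. The direction depended on the scaling. TPM share out each library over all genes, haemoglobin included, and on that scale the median gene was 0.43 higher in stable disease (log2), against 0.01 on the TMM scale. CPM and log2 fold changes of single genes are given on the TMM scale throughout. A gene lower on that scale need not be lower on the TPM scale.

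Haemoglobin genes took a smaller share of the counts in stable disease. The share was lowest at 68.7%, 76.5% at the median and 81.7% at the highest in stable disease, against 71.3%, 81.2% and 87.4% in progressing mice. The ranges overlapped widely, yet 13 of the 15 stable disease libraries lay below the median of the progressing ones, and the 15 responders had still higher shares (75.4%, 83.8% and 87.8%). The means were 75.8% ± 4.79 (SD, n = 15) and 79.9% ± 4.94 (SD, n = 14), a difference of -4.07 percentage points (two-sided permutation test with 100000 resamples, p = 0.0351). After adjustment over the 4 measures tested per library, p was 0.0702 (permutation test), so that the difference did not pass the correction. With groups permuted within the tag series, p was 0.0223. Leaving out any of 8 mice (progressing libraries 24, 26 and 29, stable disease libraries 36, 37, 39, 42 and 44) raised the unadjusted p above 0.05, to at most 0.0613 by permutation.

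**Figure D1:**
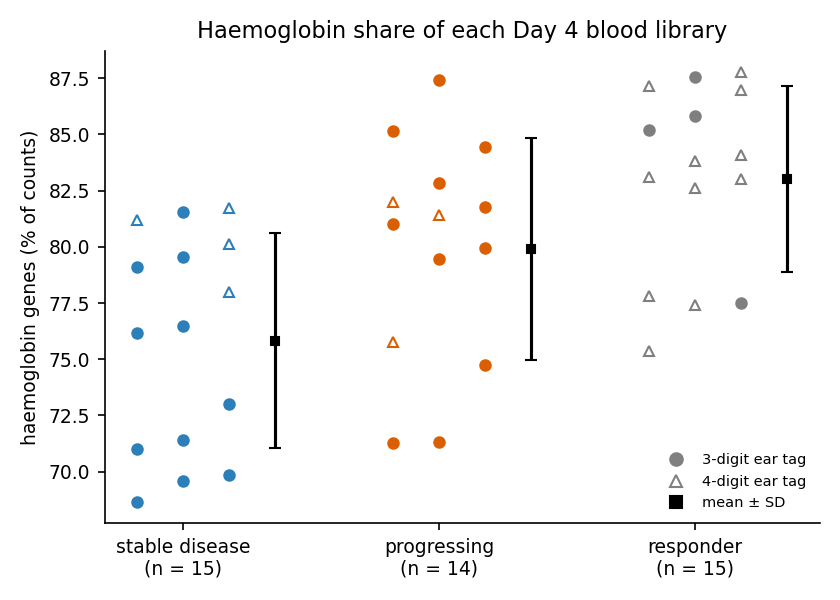
Share of haemoglobin genes in the counts of each Day 4 library (vertical axis, percent) for stable disease (n = 15), progressing (n = 14) and responder (n = 15) mice; points are libraries, filled circles 3-digit and open triangles 4-digit tags, and the black square and bar give mean ± SD. Stable disease libraries with 3-digit tags reach down to 68.7%, and the 4 with 4-digit tags lie between 78.0% and 81.7%.

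Within the tag series, the haemoglobin share was lower in stable disease among mice with 3-digit tags. There it was 73.0% at the median (68.7% to 81.5%, n = 11) in stable disease and 81.0% (71.3% to 87.4%, n = 11) in progressing mice, a difference of means of -5.73 (permutation test, p = 0.0153). Among 4-digit tags it was 0.55 in the other direction (4 against 3 mice, exact permutation test, p = 0.8, with 0.0571 the smallest p such groups allow). The difference between the series, -6.28 percentage points, did not pass (permutation test, p = 0.0533). On later days the mice of both groups were closer, at 77.3% ± 3.32 and 79.1% ± 4.05 (SD, n = 15 and 14) on Day 9, 81.9% ± 2.34 and 81.4% ± 2.76 (SD, n = 15 and 13) on Day 17 and 82.2% ± 3.11 and 80.8% ± 2.51 (SD, n = 15 and 14) on Day 24. The Day 24 mean of stable disease includes library 166, at 88.0%, which stood apart on that day.

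Haemoglobin genes had the most negative median of the lists followed on the TMM scale, and red cell maturation genes were close to mitochondrial transcripts as the next lowest, although 0 of their genes passed. Of 7 haemoglobin genes tested, 6 had an unadjusted p below 0.05 and were lower in stable disease, with a median log2 fold change of -0.76 (-0.05 on the TPM scale), and of 38 red cell maturation genes 29 did, with a median of -0.57 (0.05 on the TPM scale). The share over all genes was 15.0% lower. Alas2, the first enzyme of haem synthesis in red cells (chromosome X from 150547375 to 150570638 of GRCm38), was at 7186 CPM at the median (4241 to 13312) in stable disease, 11385 (4982 to 23694) in progressing mice and 17073 (6064 to 53772) in responders. Of the 14 progressing libraries, 5 lay above the highest stable disease library, and 3 stable disease libraries lay below the lowest progressing one. Its log2 fold change was -0.71 (95% interval -1.22 to -0.19, adjusted p = 0.11 by edgeR's quasi-likelihood test, Benjamini-Hochberg adjusted). Alas2, the adult beta globin genes Hbb-bs and Hbb-bt, and Rhd were named after their values were seen. Hbb-bt (-0.76) and Hbb-bs (-0.70) differed by about as much, and beta globin copies are nearly identical in sequence and may share reads.

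The theta globin gene Hbq1a (chromosome 11 from 32300069 to 32300873) was at 15.5 CPM at the median (8.63 to 30.3) in stable disease, 25.4 (12.1 to 71.0) in progressing mice and 39.0 (15.0 to 112) in responders. Here 6 stable disease libraries lay below the lowest progressing one and 5 progressing libraries above the highest of stable disease. Bnip3l, which clears mitochondria from reticulocytes, was at 633 CPM (367 to 1302) and 1017 CPM (438 to 2013), a log2 fold change of -0.68. Tspo2, a porphyrin and cholesterol handling protein of erythroid cells, differed by -0.69, Mkrn1, a ubiquitin ligase abundant in reticulocytes, by -0.66 and Fbxo7, a part of SCF ubiquitin ligases, by -0.54. For Hbq1a the adjusted p was 0.102, and for Bnip3l, Tspo2, Mkrn1 and Fbxo7 it was 0.108 (edgeR's quasi-likelihood test, adjusted by Benjamini-Hochberg). Rhd, the carrier of the rhesus blood group (chromosome 4 from 134864536 to 134896172), was at 1.13 CPM (0.557 to 2.82) and 1.64 CPM (0.809 to 4.31).

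The platelet list also had a median below 0 on the TMM scale, which was above 0 on the TPM scale, and 0 of its genes passed. Of 24 tested, 17 had an unadjusted p below 0.05 and were lower in stable disease (15.0% over all genes), with a median of -0.54 on the TMM scale and 0.18 on the TPM scale. The medians of the groups were nearly the same for Gp9, a subunit of the platelet receptor for von Willebrand factor, at 37.5 CPM (21.4 to 72.9) in stable disease and 37.3 CPM (27.2 to 197) in progressing mice. Its log2 fold change of -0.70 came with 5 progressing libraries above every library of stable disease. Gp5, of the same receptor (chromosome 16 from 30307685 to 30310779), was at 12.2 CPM at the median in both groups, with highest values of 23.7 in stable disease and 58.1 in progressing mice. Gp1bb (-0.76), also of this receptor, was at 4.84 CPM at the median against 5.66 CPM, with 10 of 15 stable disease libraries below the progressing median and 6 progressing libraries above all of stable disease. Selp, the P-selectin of platelet granules (-0.54), was at 1.68 CPM against 1.94 CPM, with 13 of 15 below that median and 4 progressing libraries above all of stable disease.

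The 200 bases before the start of 3 of these genes are shown because red cell and platelet genes were among the lists with the lowest medians and GATA1, which binds AGATAA and its complement TTATCT, is the known regulator of both lineages. They are RefSeq promoter sequences of GRCm38.p6, written 5′ to 3′ on the strand of the gene, with AGATAA or TTATCT in capitals.
Hbq1a, chr11:32299869-32300068, plus strand: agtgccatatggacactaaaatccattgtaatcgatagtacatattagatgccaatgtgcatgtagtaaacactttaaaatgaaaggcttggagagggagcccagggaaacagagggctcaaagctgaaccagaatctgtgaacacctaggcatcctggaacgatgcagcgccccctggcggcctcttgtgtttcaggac
Rhd, chr4:134864336-134864535, plus strand: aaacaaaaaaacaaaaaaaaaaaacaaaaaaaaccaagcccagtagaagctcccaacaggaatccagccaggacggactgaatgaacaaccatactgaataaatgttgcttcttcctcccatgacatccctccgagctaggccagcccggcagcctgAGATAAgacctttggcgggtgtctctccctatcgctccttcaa
Gp5, chr16:30310782-30310981, minus strand: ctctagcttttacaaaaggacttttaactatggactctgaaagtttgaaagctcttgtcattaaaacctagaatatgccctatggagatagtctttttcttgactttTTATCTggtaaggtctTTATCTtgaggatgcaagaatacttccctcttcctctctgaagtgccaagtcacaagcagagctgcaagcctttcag
The window of Rhd holds 1 copy, that of Gp5 holds 2 and that of Hbq1a holds 0. In windows of this length, searched on both strands, 4 of 24 red cell maturation genes (16.7%), 3 of 18 platelet genes (16.7%) and 0 of 7 haemoglobin genes held a copy, against 4.4% of 9360 promoters of genes tested and 7.98% of all 27025 promoters. For B cell genes it was 0 of 22 and for T cell genes 1 of 19 (5.26%). A second motif, CCACACCC or its complement GGGTGTGG, was held by 1 of 7 haemoglobin genes (14.3%) and 2.95% of promoters of genes tested. It was in 0 of 24 red cell maturation, 0 of 18 platelet, 0 of 22 B cell and 0 of 19 T cell genes. The 3 windows shown are examples and do not stand for their lists. A match is a description of these letters and not a bound site, and a part of GATA1 in these differences was not tested.

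Transcripts of the mitochondrial genome and messages for ribosomal proteins also had medians below 0 on the TMM scale and above 0 on the TPM scale, and none passed. Over all genes 15.0% had an unadjusted p below 0.05 and were lower in stable disease. All 15 mitochondrial transcripts did, with a median of -0.59 (0.04 on the TPM scale). Of 78 cytosolic ribosomal protein genes 75 did, with a median of -0.45 (0.16 on the TPM scale), and of 71 nuclear genes of the respiratory chain 55 did, with a median of -0.26 (0.29 on the TPM scale). The list of ribosomal proteins, with those of mitochondrial ribosomal proteins and proteasome subunits, was added after values had been seen. The complex I subunit gene mt-Nd1 was at 228 CPM at the median (190 to 371) in stable disease, 368 (193 to 821) in progressing mice and 267 (194 to 875) in responders. It was above every stable disease library in 7 of 14 progressing ones, and 14 of 15 stable disease libraries lay below the progressing median. Rpl36, of the large ribosomal subunit, was at 25.5 CPM (21.4 to 36.9) and 38.5 CPM (22.6 to 67.5), with 8 progressing libraries above all of stable disease. Their log2 fold changes were -0.66 (95% interval -1.05 to -0.28) and -0.56 (-0.85 to -0.26), each with an adjusted p of 0.102 by the same edgeR test. Rps15, of the small subunit, differed by -0.53. As a share of the counts outside haemoglobin, mitochondrial transcripts were at 4.42% ± 0.71 (SD, n = 15) against 5.35% ± 1.63 (SD, n = 14).

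**Figure D2:**
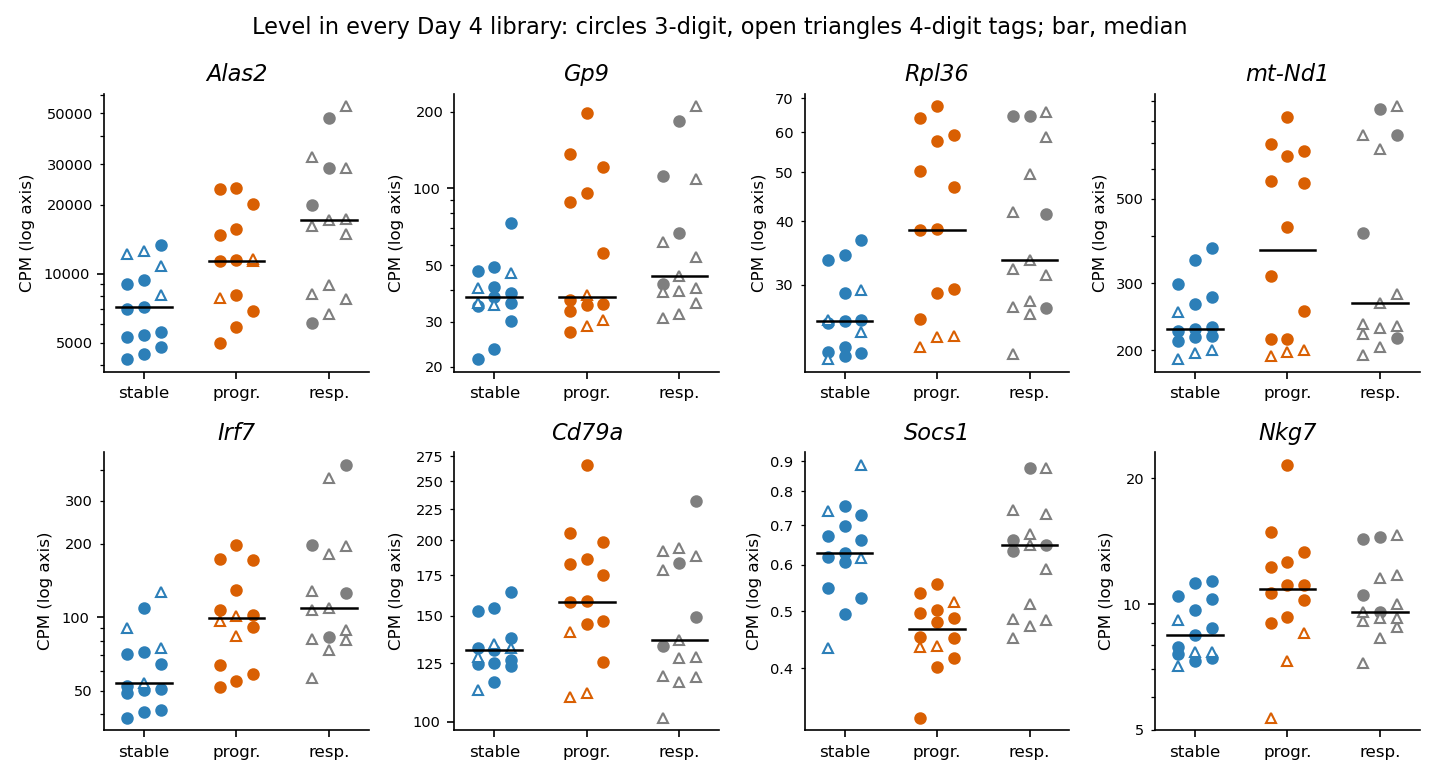
Level of 8 genes in each Day 4 library (CPM, log axis) for stable disease, progressing and responder mice; filled circles are 3-digit and open triangles 4-digit tags, and the bar is the median. For Gp9, Rpl36 and mt-Nd1 every progressing library above the highest stable disease library (mt-Nd1 to 821 CPM) wears a 3-digit tag.

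Of the 12 genes in each direction with the smallest p, all but Hist1h2bg (-1.03) had log2 fold changes between -0.46 and 0.46. These genes were chosen by p in the same 29 libraries, so library counts and values within tag series are no independent check. Socs1, an inhibitor of cytokine receptor signalling through JAK kinases (chromosome 16 from 10782240 to 10785536), had the smallest p of all genes. It was at 0.628 CPM at the median (0.433 to 0.888) in stable disease, 0.466 (0.330 to 0.556) in progressing mice and 0.647 (0.451 to 0.876) in responders, so that 11 of 15 stable disease libraries exceeded every progressing one. The log2 fold change was 0.46 (SE 0.10, adjusted p = 0.102, edgeR's quasi-likelihood test, adjusted by Benjamini-Hochberg), and it kept its direction among 3-digit tags (0.43) and 4-digit tags (0.55) and with the haemoglobin share in the fit (0.46). The level is low, below 1 CPM in every library of both groups. Wdr82, a subunit of the SET1 histone methyltransferase complexes (chromosome 9 from 106170928 to 106191139), was at 16.7 CPM (15.2 to 18.7) and 15.0 CPM (11.6 to 16.5), a log2 difference of 0.21. All 15 stable disease libraries lay above the progressing median, and 10 lay above all progressing libraries.

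The others of the 12 named genes that were higher in stable disease, none of which passed, had log2 fold changes between 0.23 and 0.40. Spns2, the exporter of sphingosine-1-phosphate that guides lymphocytes out of tissue, was at 4.31 CPM (3.48 to 4.98) against 3.46 CPM (2.24 to 4.19). Znrf3, a ubiquitin ligase that removes Wnt receptors, was at 2.60 CPM (1.91 to 3.21) against 1.84 CPM (0.805 to 2.49). Trp53inp1, a target of p53 that promotes autophagy, was at 42.0 CPM (37.8 to 49.0) against 34.8 CPM (23.1 to 41.8). In each of these 3 genes all 15 stable disease libraries lay above the progressing median. Usp31, a deubiquitinase (0.34), Slc41a1, a magnesium transporter (0.24), Rcor1, the CoREST corepressor (0.25), Tgfbr3, a coreceptor for TGF-beta (0.27), Mib1, a ubiquitin ligase for Notch ligands (0.33), Impad1, a phosphatase of the Golgi (0.23), and Tmem170b (0.31) made up the 12. Trp53inp1 and Tmem170b were at -0.016 and -0.013 among 4-digit tags.

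The 12 named genes that were lower in stable disease on the TMM scale, none of which passed, were chosen by p alone and are of varied function. Ndufv1, which carries the flavin of complex I (chromosome 19 from 4007384 to 4012806), was at 5.08 CPM (4.46 to 5.77) in stable disease and 6.18 CPM (4.76 to 8.51) in progressing mice, and all 15 stable disease libraries lay below the progressing median. Its log2 fold change was -0.27 (SE 0.06). Ndufa10, of the same complex, differed by -0.37, Mrpl30, of the mitochondrial ribosome, by -0.46 and Coq8b, needed for coenzyme Q, by -0.30. Copg2, a coat protein of Golgi vesicles (chromosome 6 from 30747554 to 30896794), was at 6.02 CPM (4.73 to 6.74) against 6.94 CPM (5.40 to 8.30), a difference of -0.21 that was -0.26 among 4-digit tags. Vps41 (-0.23) and Snf8 (-0.30) act in the sorting to lysosomes. Lig1, the ligase of DNA replication, differed by -0.26, and the histone gene Hist1h2bg by -1.03 at a level of 0.127 CPM (0.0507 to 0.277) against 0.250 CPM (0.165 to 0.601). Uap1l1 (-0.33), Noxred1 (-0.45) and the dipeptidase gene Cndp2 (-0.30) completed the 12, each with an adjusted p of 0.102 by edgeR's test.

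The interferon list had a median below 0 on the TMM scale and above 0 on the TPM scale, and none of its genes passed. Of 38 tested, 14 had an unadjusted p below 0.05 and were lower (15.0% over all genes), and the median was -0.13 (0.29 on the TPM scale). Irf7, the transcription factor that amplifies interferon production (chromosome 7 from 141262706 to 141266481), was at 53.6 CPM (38.9 to 127) in stable disease, 98.9 (52.0 to 197) in progressing mice and 109 (56.1 to 421) in responders. Of the stable disease libraries 13 of 15 were below the progressing median and 6 below the lowest progressing library. Isg15, a ubiquitin-like protein induced by interferon, was at 43.9 CPM (22.6 to 97.9) against 75.1 CPM (36.2 to 128). Their log2 fold changes of -0.72 and -0.70 were -0.25 and -0.19 with the haemoglobin share in the fit. Ifi27l2a (-0.32) and Usp18, which dampens interferon receptor signalling (-0.30), followed.

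Genes of antigen presentation had medians below 0 on the TMM scale and above 0 on the TPM scale, and none passed. Of 16 genes of MHC class II, 9 had an unadjusted p below 0.05 and were lower (15.0% over all genes, with 10.1% higher), at a median of -0.17 (0.34 on the TPM scale), and of 23 genes of MHC class I and the immunoproteasome 10 were lower and 1 higher, at a median of -0.10 (0.43 on the TPM scale). H2-Ab1 and H2-Aa, the chains of one class II molecule, differed by -0.31 each. H2-Aa was at 193 CPM (172 to 244) against 245 CPM (165 to 385), with 7 progressing libraries above all of stable disease. Cd74, the invariant chain, was at 618 CPM (547 to 792) against 788 CPM (536 to 1382). Psme1, which activates the proteasome, differed by -0.34, and all 15 stable disease libraries lay below the progressing median.

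Of the white cell lists, those of lymphocytes and mature neutrophils had medians near that of all genes, those of monocytes and immature neutrophils had lower ones, and that of basophils and eosinophils a higher one (TMM scale). B cell identity genes had a median of -0.05 (1 higher and 5 lower of 31 at an unadjusted p below 0.05), T cell identity genes -0.06 (3 and 5 of 33), mature neutrophil genes -0.06 (0 and 3 of 27), natural killer genes 0.03 (0 and 2 of 23) and cytotoxic genes -0.10 (0 and 5 of 22). Over all genes 10.1% were higher and 15.0% lower. On the TPM scale the medians of these lists were 0.47, 0.49, 0.49, 0.49 and 0.35. Of 20 classical monocyte genes 6 were lower (median -0.16, 0.29 on the TPM scale), among them Ly6c2 at 13.3 CPM (10.3 to 18.7) against 17.0 CPM (12.7 to 27.9). Of 17 nonclassical monocyte genes 6 were lower (median -0.21, 0.23 on the TPM scale), among them Cd36, a fatty acid receptor that platelets and young red cells also carry, at 8.36 CPM (6.44 to 17.7) against 12.6 CPM (9.47 to 22.3). In both monocyte lists the shares of lower genes were above the 15.0% over all genes, and the medians were the same with the haemoglobin share in the fit for the first (-0.16) and -0.23 for the second. The basophil and eosinophil list had a median of 0.091 (0.44 on the TPM scale), with 0 of 14 genes at an unadjusted p below 0.05. Its median was 0.21 among 3-digit tags (0.65 on the TPM scale) and -0.19 among 4-digit tags (-0.14 on the TPM scale).

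Genes of immature neutrophil granules had a median of -0.19 (0.30 on the TPM scale), with 1 higher and 4 lower of 11 at an unadjusted p below 0.05 (10.1% and 15.0% over all genes), and 0 passed. The median was -0.15 with the haemoglobin share in the fit, and in the tag series it was -0.16 among 3-digit tags (0.50 on the TPM scale) and -0.23 among 4-digit tags (-0.24 on the TPM scale). Ngp, a protein of neutrophil secondary granules, was at 0.452 CPM (0.206 to 1.08) in stable disease and 0.705 CPM (0.330 to 2.22) in progressing mice, a log2 fold change of -0.74. Of the stable disease libraries 12 of 15 lay below the progressing median. For Lyz2, the lysozyme of myeloid cells, 14 of 15 did, at 247 CPM (174 to 332) against 316.5 CPM (210 to 422). Cd177, a surface protein of neutrophils, differed by -0.35 and Chil3, a chitinase-like protein, by -0.42, with 13 of 15 stable disease libraries below the progressing median in each. Chil3 was at 0.21 among 4-digit tags.

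**Figure D3:**
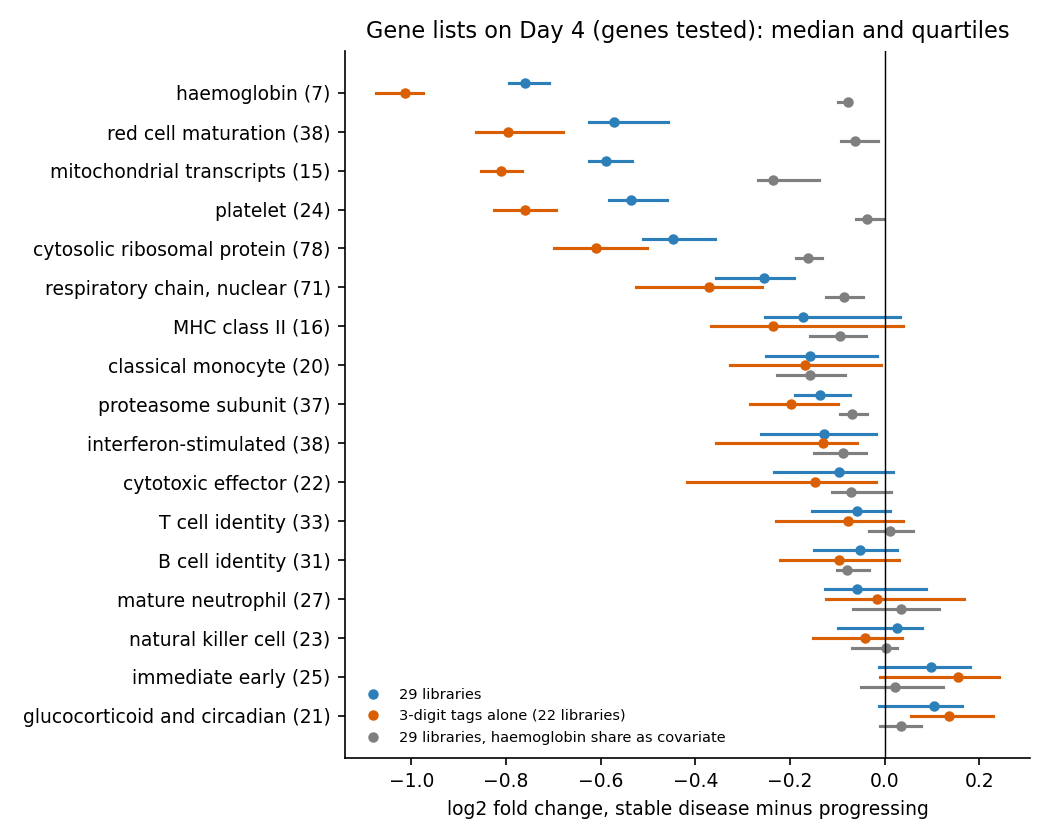
Log2 fold change of stable disease against progressing mice on Day 4 (horizontal axis, TMM scale) for 17 gene lists, with the number of genes tested; points are medians and bars quartiles over genes, for all 29 libraries, for 3-digit tags alone and with the haemoglobin share as a covariate. Haemoglobin, red cell, mitochondrial, platelet and ribosomal lists lie lowest (medians -0.76 to -0.45, against -0.05 to 0.18 on the TPM scale) and, with the covariate, at -0.24 to -0.04.

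Among markers that the study follows, B cell genes had log2 fold changes of unlike size, which were not tested against each other, and none passed. The receptor chain gene Cd79a was at 131 CPM (113 to 164) in stable disease and 158 CPM (110 to 267) in progressing mice, a log2 fold change of -0.28 (95% interval -0.47 to -0.09, adjusted p = 0.107 by edgeR's quasi-likelihood test, Benjamini-Hochberg adjusted). Cd79b, the other chain, differed by -0.19, Ms4a1 (CD20) by -0.15 and Cd22 by -0.03. Fcmr, the receptor for IgM, differed by -0.36, at 63.7 CPM (53.7 to 84.3) against 80.8 CPM (52.9 to 146). Of the T cell markers, Nkg7, a granule membrane protein of cytotoxic cells, was at 8.44 CPM (7.10 to 11.4) against 10.9 CPM (5.36 to 21.6), a difference of -0.29. The others were closer to 0, with Cxcr3 at -0.13 (95% interval -0.35 to 0.09), Cx3cr1 at -0.18 (-0.46 to 0.10), Cxcr6 at -0.05 (-0.23 to 0.12), Tbx21 at -0.01 (-0.22 to 0.21) and Gzmb at 0.05 (-0.17 to 0.26). With single mice left out, Cx3cr1 ran from -0.22 to -0.11, Cxcr6 from -0.081 to -0.019, Gzmb from 0.012 to 0.095 and Cd22 from -0.052 to -0.010. Of the signature lists that the study published, the effector memory T cell list had 12 genes higher and 52 lower of 152 at an unadjusted p below 0.05 (median -0.12, 0.43 on the TPM scale). The B cell list had 11 and 24 of 120 (median -0.01, 0.49 on the TPM scale), and over all genes 10.1% were higher and 15.0% lower. No gene of either list passed. The members with the smallest p in these lists were Psme1, Cox5b, Rps13, Btf3, Naca, Rack1 and Eif3f, which belong to the proteasome activator, the respiratory chain and protein synthesis. The other lower members were not divided by function.

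The target of the treatment was at a low level, and its difference had a wide interval. Pdcd1, which encodes PD-1, was at 0.169 CPM (0 to 0.333) and 0.173 CPM (0 to 0.460), and its log2 fold change of -0.25 had a 95% interval from -0.94 to 0.43. Its ligand gene Cd274 was at 7.47 CPM (6.06 to 9.95) and 7.03 CPM (5.06 to 10.4), a difference of 0.07 (-0.09 to 0.24). With single mice left out, Pdcd1 ran from -0.35 to -0.14 and Cd274 from 0.035 to 0.12. Of 22 checkpoint genes 1 was higher and 1 lower at an unadjusted p below 0.05, against 10.1% and 15.0% over all genes. The higher one was Icosl, a costimulatory ligand, at 0.27 and the lower one Lag3, an inhibitory receptor, at -0.60 with levels of 0.169 CPM (0.0178 to 0.285) against 0.264 CPM (0.0641 to 0.862). The immediate early and glucocorticoid lists had positive medians on both scales, but on the TPM scale so did all genes (0.43). Their shares of higher genes were above the 10.1% over all genes, and 0 of their genes passed. Of 25 immediate early genes 6 were higher and 2 lower (median 0.10), with Zfp36 (0.15), which destabilises cytokine messages, Myc (0.18) and Ier5 (0.18) among the higher ones and Ppp1r15a (-0.56), which ends the integrated stress response, among the lower. Of 21 glucocorticoid and circadian genes 4 were higher and 0 lower (median 0.10), Sgk1, a kinase induced by glucocorticoids, by 0.18 and Clock by 0.35. Among 4-digit tags these medians were -0.026 and -0.088.

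Usage of immunoglobulin and T cell receptor genes was compared by how unevenly counts fall on the V genes, as the sum of squared shares. Over 113 heavy chain V genes it was 0.0223 ± 0.000864 (SD, n = 15) in stable disease and 0.0234 ± 0.00157 (SD, n = 14) in progressing mice, a difference of -0.00111 (permutation test, p = 0.0244, adjusted p = 0.0702 over the 4 measures). The libraries held 1081 to 3982 such counts in stable disease and 786 to 3400 in progressing mice, and few counts raise this sum. Freed of that sampling term, the difference was -0.000914 (permutation test, p = 0.0522), and within the tag series it was -0.000806 among 3-digit tags (permutation test, p = 0.178) and -0.00214 among 4-digit tags (exact permutation test, p = 0.114). Over 22 T cell receptor beta V genes the sums were 0.0668 ± 0.00442 and 0.0668 ± 0.00395 (SD, n = 15 and 14, permutation test, p = 0.987). Immunoglobulin genes took 0.465% ± 0.0693 and 0.434% ± 0.0941 of the counts outside haemoglobin (SD, n = 15 and 14, permutation test, p = 0.308). The difference of 0.0315 percentage points was 0.0198 without progressing library 26 (permutation test, p = 0.509) and 0.0457 without progressing library 28 (permutation test, p = 0.119). Near-identical V genes may share reads, and gene counts show the usage of V genes and not clones.

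Mice with 3-digit tags alone gave calls. In 11 against 11 libraries, 423 of 12464 genes (3.39%) passed both thresholds in edgeR's test, 19 (0.152%) higher and 404 (3.24%) lower in stable disease. At an unadjusted p below 0.05 there were 4270 (34.3%), 1728 (13.9%) higher and 2542 (20.4%) lower. Among the lower were 45 of the cytosolic ribosomal proteins, 13 nuclear genes of the respiratory chain, 12 of 15 mitochondrial transcripts, 10 red cell maturation genes, 4 interferon genes, 3 haemoglobin genes and 3 platelet genes. List medians on the TMM scale were -1.01 for haemoglobin (-0.079 on the TPM scale), -0.80 for red cell maturation (0.032), -0.81 for mitochondrial transcripts (0.089), -0.76 for platelets (0.21) and -0.61 for ribosomal proteins (0.23), with all genes at 0.58 on the TPM scale. Rpl36 fell by 0.77 on the log2 scale (SE 0.16, adjusted p = 0.0328) and Irf7 by 0.91 (adjusted p = 0.0328, edgeR's quasi-likelihood test, adjusted by Benjamini-Hochberg). Of the 19 higher genes, 5 of which are named after their values were seen, Mex3b, an RNA-binding protein, rose by 0.72 (SE 0.15), Slco4c1, an organic anion transporter, by 0.98, Smad7, an inhibitor of TGF-beta signalling, by 0.62, Tnf by 0.70 and Klf5 by 0.84. These calls depended on single mice. With each of the 22 left out in turn, between 0 and 807 genes passed, and 0 passed in 12 of the 22 cases (progressing libraries 23, 24, 25, 26 and 29, stable disease libraries 35, 36, 37, 41, 42, 43 and 44), with 3570 to 5119 genes at an unadjusted p below 0.05 throughout.

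Mice with 4-digit tags gave no calls, and the lowest lists took the other direction on the TMM scale. In 4 against 3 libraries 0 of 12382 genes passed edgeR's test, with 414 (3.34%) at an unadjusted p below 0.05. List medians were 0.10 for haemoglobin, 0.14 for red cell maturation and 0.23 for platelets, also above 0 on the TPM scale, and 0.082 for both mitochondrial transcripts (-0.027 on the TPM scale) and ribosomal proteins (-0.032). Lists that stayed below 0 on the TMM scale included mature neutrophils (-0.24), immature neutrophil granules (-0.23), classical monocytes (-0.095) and interferon genes (-0.074), with -0.28, -0.24, -0.13 and -0.16 on the TPM scale in this order. Of the named genes followed through the alternatives, 41 kept their direction among 4-digit tags and 40 took the other. The difference between the series was itself tested as an interaction, and 0 of 12501 genes passed, with a smallest adjusted p of 0.399 (edgeR's quasi-likelihood test, adjusted by Benjamini-Hochberg) and 12.2% of genes at an unadjusted p below 0.05. In the fit of all 29 libraries, leaving out progressing library 22 alone gave 88 calls (5 higher and 83 lower), 83 of which were among the 423 of the 3-digit tags, and leaving out any other single library gave 0.

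With the share as a covariate, which was chosen after seeing the data, 0 genes passed and 543 (4.34%) had an unadjusted p below 0.05, of which 279 (2.23%) were higher and 264 (2.11%) lower. List medians moved to -0.08 for haemoglobin, -0.06 for red cell maturation, -0.04 for platelets, -0.24 for mitochondrial transcripts and -0.16 for ribosomal proteins. The covariate is the share of the haemoglobin genes themselves, so this fit takes out the haemoglobin list's own difference. As these messages are red cell RNA, it also takes out a difference in red cell RNA itself. The part of red cell content in the other lists was not tested. Genes that were lower in stable disease at an unadjusted p below 0.05 also had shorter transcripts, at a median of 2182 bases for 1881 genes, than the 1259 higher ones, at 5063 bases, and all 12501, at 3273 bases. The part of transcript length was not tested.

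**Figure D4:**
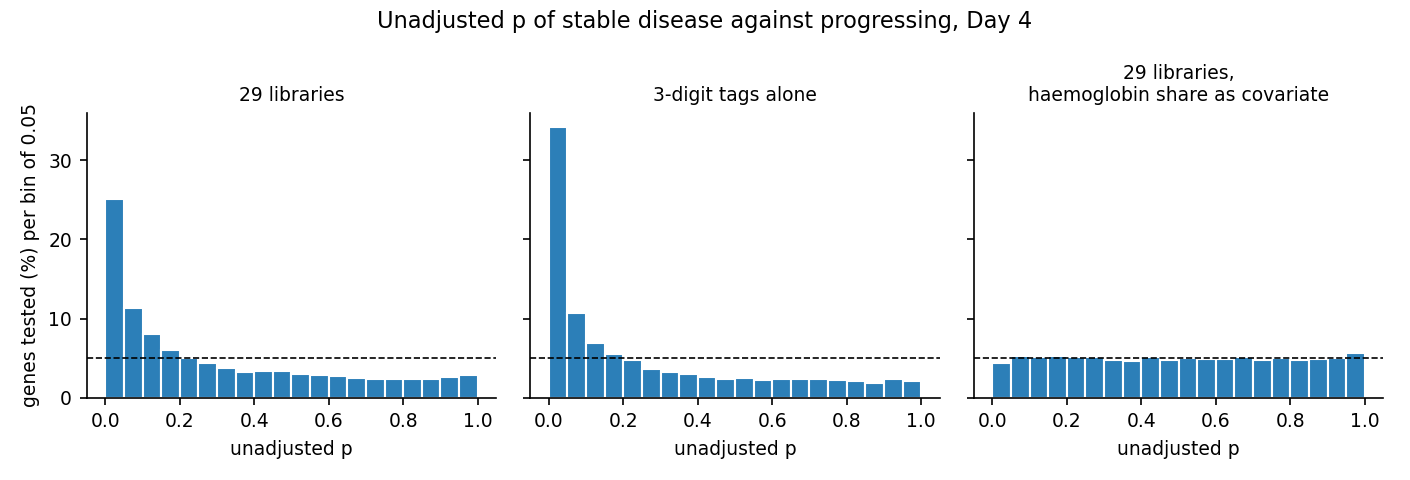
Share of genes tested (vertical axis, percent) by unadjusted p in bins of 0.05 (horizontal axis), for all 29 libraries, for 3-digit tags alone and for all 29 libraries with the haemoglobin share as a covariate; the dashed line marks an even share of 5%. The lowest bin holds 25.1%, 34.3% and 4.34% of genes.

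Set beside responders, the red cell lists had medians below 0 in both groups of nonresponders, on the TPM scale too but there by at most 0.11. In 1 fit of the 44 Day 4 libraries with the tag series, 1225 of 12693 genes (9.65%) passed between stable disease and responders, 106 (0.835%) higher and 1119 (8.82%) lower, and 0 passed between progressing mice and responders, where 1408 (11.1%) had an unadjusted p below 0.05, 340 (2.68%) higher and 1068 (8.41%) lower. Between stable disease and responders 5838 genes (46.0%) had one, 2660 (21.0%) higher and 3178 (25.0%) lower. The comparisons share the responder libraries, and responders wore 4-digit tags in 11 of 15 cases. Medians against responders were -1.36 in stable disease and -0.65 in progressing mice for haemoglobin (-0.11 and -0.035 on the TPM scale) and -1.36 and -0.80 for red cell maturation (-0.078 and -0.10). They were -0.87 and -0.35 for platelets (0.55 and 0.39 on the TPM scale), -1.01 and -0.41 for mitochondrial transcripts (0.58 and 0.46) and -0.70 and -0.25 for ribosomal proteins (0.64 and 0.46). Alas2 fell by 1.40 in stable disease against responders (adjusted p = 0.00197, edgeR's quasi-likelihood test, adjusted by Benjamini-Hochberg) and was at -0.73 in progressing mice (adjusted p = 0.41, same test). Irf7 fell by 1.24 (adjusted p = 0.00165, same test), against -0.57 (adjusted p = 0.437). Socs1 showed the other order, at 0.01 in stable disease and -0.46 in progressing mice (adjusted p = 0.97 and 0.366, same test). B and T cell identity lists were within 0.12 of responders in both groups on the TMM scale and 0.45 to 0.97 above them on the TPM scale, where all genes were at 0.76 in stable disease and 0.33 in progressing mice.

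Blood drawn later from the same mice was compared in the same way. On Day 9, 0 of 12468 genes passed edgeR's test and 972 (7.80%) had an unadjusted p below 0.05, 700 (5.61%) higher and 272 (2.18%) lower in stable disease. On Day 17, 1 of 12194 genes (0.00820%) passed, Scand1, a zinc finger cofactor, which fell by 2.83 (SE 0.42, adjusted p = 0.00213, edgeR's quasi-likelihood test, adjusted by Benjamini-Hochberg), with 1186 (9.73%) at an unadjusted p below 0.05, 499 (4.09%) higher and 687 (5.63%) lower. On Day 24, 0 of 12203 passed and 388 (3.18%) had an unadjusted p below 0.05, 177 (1.45%) higher and 211 (1.73%) lower. Stable disease library 166 stood apart on that day, with 12605 genes detected, 27 heavy chain V gene counts and a haemoglobin share of 88.0%, and without it 0 passed and 542 (4.44%) had an unadjusted p below 0.05, 289 (2.37%) higher and 253 (2.07%) lower. Red cell maturation genes went from a median of -0.57 on Day 4 to -0.18 on Day 9, 0.27 on Day 17 and 0.73 on Day 24 on the TMM scale, against 0.052, 0.037, 0.0070 and 0.096 on the TPM scale. The last values were 0.23 (TMM) and 0.045 (TPM) without library 166. Mitochondrial transcripts were at -0.042, 0.012 and 0.13 on Days 9, 17 and 24 (0.20, -0.25 and -0.17 on the TPM scale), the last at 0.083 (-0.080 on the TPM scale) without that library, and ribosomal proteins at -0.036, -0.10 and 0.20 (0.15, -0.35 and -0.22 on the TPM scale), the last at -0.0053 (-0.17 on the TPM scale) without it. Socs1 was at 0.09, -0.55 and 0.19. The Day 17 comparison leaves out 1 progressing mouse, whose label on that day says responder, and the change between days was not tested.

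**Figure D5:**
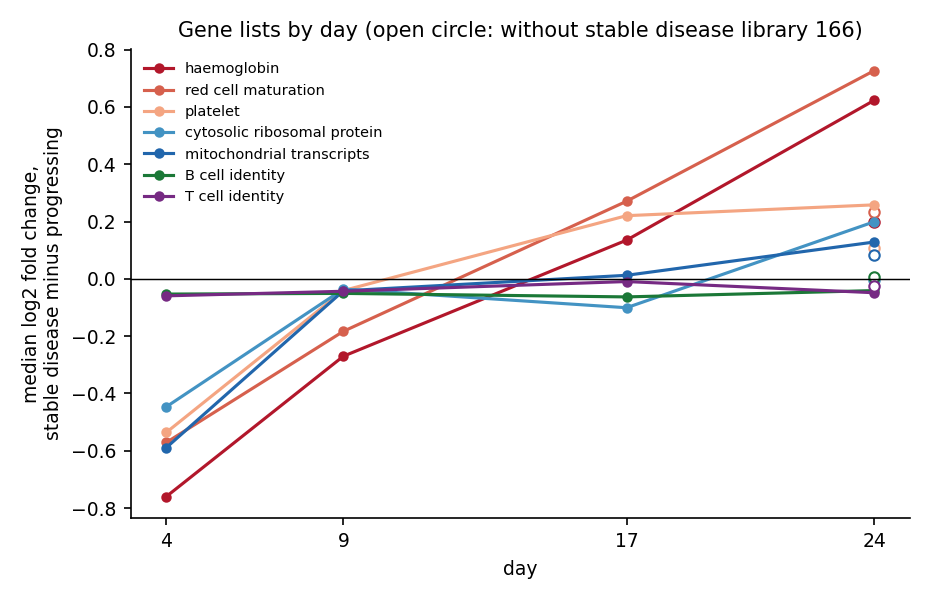
Median log2 fold change of stable disease against progressing mice (vertical axis, TMM scale, over the genes of each list) on Days 4, 9, 17 and 24 (horizontal axis), for 7 gene lists; the open circles give Day 24 without stable disease library 166. Red cell maturation runs from -0.57 to 0.73 (0.23 without that library; 0.052 to 0.096 on the TPM scale), and B and T cell lists lie between -0.06 and 0.01 on this scale (-0.33 to 0.49 on the TPM scale).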

How the data were processed

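Bulk RNA-seq of whole blood was analysed for 29 Day 4 libraries of nonresponders, with the Day 4 responders and the later libraries of the same mice for reference. The authors deposited estimated counts per gene for all samples in 1 table and TPM per gene symbol in another. The processing notes name STAR and mm10. Versions, the counting tool and the annotation are not given in the sources used here. All 55450 gene identifiers match GENCODE M21 of GRCm38, from which positions were taken. The tests had been planned for whole counts, and 3.14% of the deposited values were not whole, so counts were rounded.

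Counts were scaled by TMM, filtered by filterByExpr and tested with glmQLFit and glmQLFTest of edgeR 4.0.16 in R 4.3.3, with the tag series as covariate and Benjamini-Hochberg adjustment over all genes tested. Called genes had an adjusted p up to 0.05 together with a 1.5-fold or larger difference. Intervals are 95%. Single values per library were compared by two-sided permutation tests with 100000 resamples (10000 for the difference between tag series), or exact ones for 4 against 3 mice. Alternatives used DESeq2 1.42, Wilcoxon tests on TPM with folds from log2(mean TPM + 0.1), other filters, no tag series, each series alone, haemoglobin genes removed and single mice left out. Counts of 12400 genes were also simulated for this comparison, each gene drawn independently, with 100 genes changed at each fold. By the adjusted p alone, 70% of 1.5-fold and 94% of 2-fold changes were recovered, with 4.65% false among those passing. The simulation held no difference shared by many genes, such as that in haemoglobin share. It therefore does not give the recovery in the real libraries.

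Named were, in each direction, the 12 genes with the smallest p, members of each list among its 4 of smallest p, and the T and B cell markers that the study names, with Pdcd1, Cd274 and sex-linked genes. 1 of those markers is not reported here. Predicted genes and clones were not named. Members and lists were chosen with earlier results of these data known. Within a day each library is a separate mouse, and the same mice recur on later days.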

Additional observations from a re-analysis of the deposited data

How the results depend on the processing

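The count of 0 called genes held in edgeR's test with the other filters, without the tag series, without haemoglobin genes, with all 44 libraries in the fit and with the haemoglobin share as a covariate. DESeq2 called 146 genes, 3-digit tags alone 423 and one-tailed Wilcoxon tests on TPM 1563. Leaving out single mice gave 0 to 88 calls (88 without progressing library 22) and, among 3-digit tags, 0 to 807. At an unadjusted p below 0.05 there were 414 genes among 4-digit tags and 543 with the haemoglobin covariate. Against responders, 4282 genes passed in stable disease by the adjusted p alone. The cause of these changes was not tested.

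The haemoglobin share differed by -4.74 to -3.49 percentage points with single mice left out. For Ighv the difference in concentration was -0.00126 to -0.000907 with single mice left out, -0.000806 among 3-digit tags, -0.000914 freed of sampling, -0.00391 as the share of the top gene, and -0.00214 among 4-digit tags. For Trbv it was -0.000564 to 0.000556, -0.00114, 0.000648 and 0.00489 in the same order, and 0.00419 among 4-digit tags.

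Among 4-digit tags the log2 fold change took the other sign for Tmem170b (-0.013), Trp53inp1 (-0.016), Icosl (-0.017), Ier5 (-0.016), Sgk1 (-0.059), Hbq1a (0.20), Hbb-bt (0.088), Hbb-bs (0.044), Alas2 (0.094), Rhd (0.084), Bnip3l (0.043), Fbxo7 (0.14), Tspo2 (0.18), Mkrn1 (0.093), Gp1bb (0.42), Gp9 (0.28), Gp5 (0.19), Fcmr (0.10), Cd79a (0.080), Cd79b (0.17), Ms4a1 (0.029), Cd74 (0.096), H2-Ab1 (0.055), H2-Aa (0.035), Psme1 (0.062), Nkg7 (0.17), Cxcr3 (0.23), Tbx21 (0.45), mt-Nd1 (0.098), Rpl36 (0.11), Rps15 (0.053), Rps13 (0.057), Btf3 (0.029), Naca (0.068), Rack1 (0.091), Eif3f (0.11), Ifi27l2a (0.015), Ppp1r15a (0.060), Chil3 (0.21) and Xist (-0.21). Tbx21 and Gzmb, near 0, and Xist also changed sign. Tbx21 was at 0.012 with 1 count in any library required, 0.0023 with 10 in every library and 0.067 with the haemoglobin covariate, and ran from -0.070 to 0.051 with single mice left out. Gzmb was at -0.066 among 3-digit tags and Xist at -0.0083 with the haemoglobin covariate. The haemoglobin covariate, the Ighv and Trbv values freed of sampling, TPM list medians of the other comparisons and the mice left out among 3-digit tags were chosen after seeing the data. A fit with Y-linked counts was not run, since all were 0. Genes below 1 CPM, such as Socs1, Lag3 and Pdcd1, are limited by depth.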
